A study of Mus musculus with 4 samples.

Results

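The genes of SR proteins and hnRNPs are the subject here, chosen by name from the mRNA table: every gene whose symbol is Srsf followed by a digit or begins with Hnrnp. The rule found 31 of 22287 genes, 11 SR protein genes and 20 hnRNP genes, and used no measured value. The series compared N2a cells, a mouse neuroblastoma line, grown without added manganese with N2a cells grown in MEM medium with 300 µM manganese for 48 h. It held 4 libraries, of which the 2 total RNA libraries (1 untreated, 1 Mn-treated) gave the mRNA table. The labels give the strain as C57BL/6 and name no genotype, transgene or other agent for either group. All values come from this 1 line, and the labels do not say how many cultures each library was made from.

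SR proteins bind RNA through 1 or more RNA recognition motifs (RRMs) and carry a domain rich in arginine and serine repeats. Bound to exonic enhancers, they help the spliceosome to recognise the exon. hnRNPs are abundant nuclear RNA-binding proteins that coat nascent transcripts, and many of them favour exon skipping, so the balance between both families sets many alternative splicing choices. Many genes of both families limit their own output through exons that, when included, send the transcript to nonsense-mediated decay.

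The mRNA table held 13972437 reads for the untreated library and 14606961 for the Mn-treated one. With 1 library per group there is no replicate error and no test. Each ratio compares these libraries, and brackets give 95% intervals that cover counting error only. Genes with 20 or more reads, both libraries summed, are called measured, and there were 11872 of them. Log2 ratios are Mn-treated over untreated, from reads plus 0.5 over the library total, and the middle measured gene lay at 0.18, so a member at 0.18 stood where the middle gene did. Of 18 neuronal and neuroblastoma markers 15 were measured, and among those below the limit Nefl and Nefm had 0 reads in both libraries. By 1.5-fold 3 of the 15 were higher with manganese, where 21.6% of all measured genes were, namely Gap43 at a log2 ratio of 1.08, Th at 0.91 and Map2 at 0.71, and 0 were lower. Tubb3, the most abundant, had 33400 and 33715 reads. Of 22 markers of glia, immune, vessel, connective and epithelial cells 8 were measured. The FPKM of all 22 summed to 38.7 and 46.4, of which Acta2 made 33.5 and 39.0. Ptprc, Cx3cr1, Aif1, Sox10, Aqp4 and Epcam were at 0 reads in both libraries. Of the 8 measured, Mbp (189 and 309 reads, at 0.64) and Krt8 (8 and 24 reads) were at least 1.5-fold higher with manganese and 0 were lower. The part of these markers in the values below was not tested.

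Of the 31 genes 30 were measured. Srsf12, the relative of Srsf10, had 0 reads in both libraries, so that its share was at most 2.15e-05% and 2.05e-05% (the share that 3 reads would make). Compared per transcript length, in the authors' FPKM, the levels spanned a wide range. Hnrnpl, which binds CA-rich RNA, stood highest at 499.95 FPKM untreated and 404 with manganese, ranks 138 and 153 of all genes in the table. It was followed by Hnrnpk, a KH-domain protein that binds C-rich RNA, at 178 and 193 FPKM. Hnrnpa1, the classic repressor of exon inclusion, stood at 128 and 182, and Hnrnpf, which binds runs of G, at 106 and 114. These 4 hnRNPs exceeded every SR protein gene in both libraries.

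Among the SR protein genes Srsf6 was highest, at 65.8 FPKM untreated and 47.1 with manganese. Srsf2 (51.4 and 44.4), Srsf9 (50.1 and 27.3), Srsf7 (47.3 and 40.0) and Srsf3 (41.9 and 39.7) followed in the untreated library. Only Srsf6 and Srsf2 exceeded Srsf9 without manganese, but in the Mn-treated library it lay below Srsf10 at 31.3 FPKM and beside Srsf5 at 27.3. The lowest levels of the measured genes were those of Srsf11 (3.98 and 4.36), Hnrnph2 (3.42 and 4.80), Hnrnpul2 (2.67 and 3.07) and Hnrnph3 (1.83 and 2.68). Srsf7, Srsf3 and Srsf10, all below Srsf9 in the untreated library, were above it with manganese, while the order of the 4 highest hnRNPs was the same in both libraries.

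**Figure D1:**
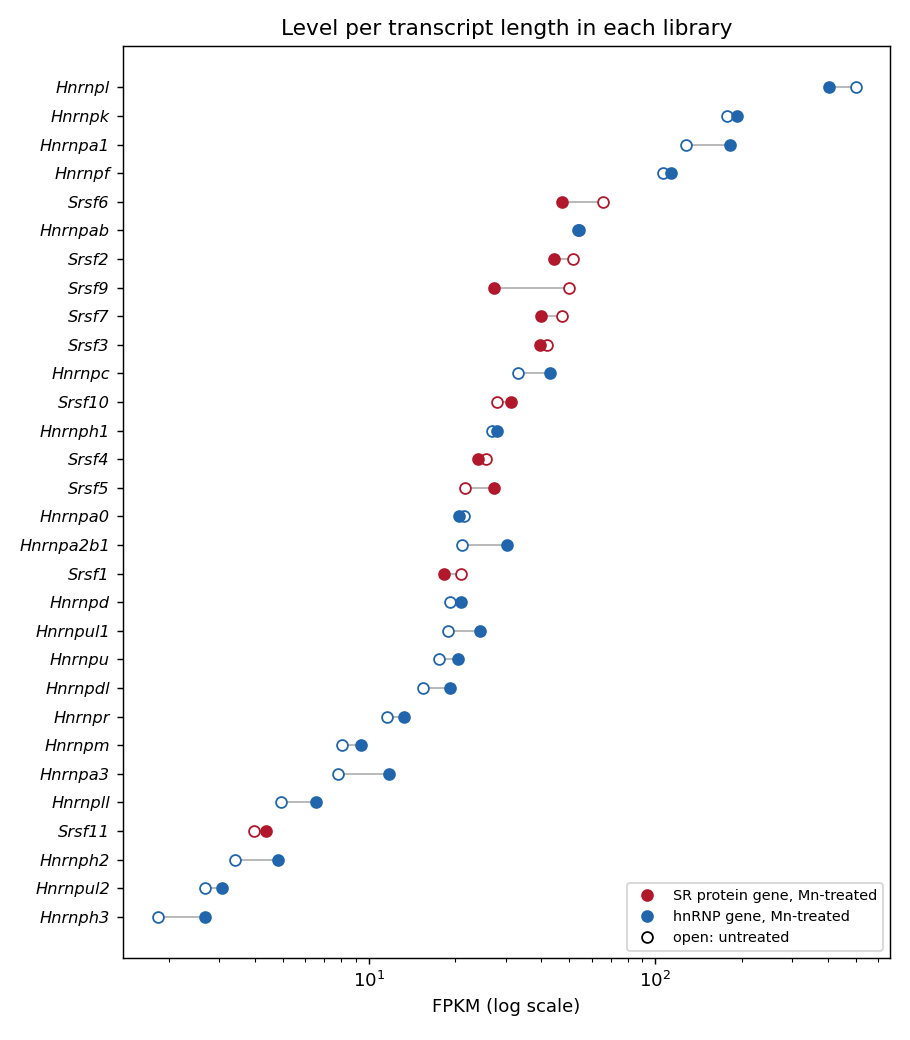
FPKM of the 30 measured genes in the untreated (open) and Mn-treated (filled) library on a log axis, SR protein genes in red and hnRNP genes in blue, ordered by the untreated level. Hnrnpl, Hnrnpk, Hnrnpa1 and Hnrnpf stand above 100 FPKM in both libraries, and the widest gap of an SR protein gene is that of Srsf9, from 50.1 to 27.3.

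The 250 bases upstream of the annotated starts are shown for the lowest and highest gene of each family by log2 ratio among genes with at least 100 reads in one library, and for Srsf1 as the closest relative of Srsf9. They come from RefSeq (GRCm38.p6), 5′ to 3′, with capitals where a searched motif occurs. Srsf9 lies on the plus strand (chr5:115326927-115327176), as do Srsf1 (chr11:88047123-88047372), Hnrnpl (chr7:28810640-28810889) and Hnrnph2 (chrX:134600929-134601178). Srsf11 lies on the minus strand (chr3:158036607-158036856), and of its 2 annotated starts 1 is shown; the window of the other also holds ETS and NRF1 motifs.
Srsf9: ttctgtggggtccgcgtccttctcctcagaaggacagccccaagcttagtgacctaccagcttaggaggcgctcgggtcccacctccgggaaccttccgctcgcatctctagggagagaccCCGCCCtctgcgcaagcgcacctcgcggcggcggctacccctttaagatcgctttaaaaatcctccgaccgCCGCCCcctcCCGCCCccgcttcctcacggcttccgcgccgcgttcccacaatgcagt
Srsf1: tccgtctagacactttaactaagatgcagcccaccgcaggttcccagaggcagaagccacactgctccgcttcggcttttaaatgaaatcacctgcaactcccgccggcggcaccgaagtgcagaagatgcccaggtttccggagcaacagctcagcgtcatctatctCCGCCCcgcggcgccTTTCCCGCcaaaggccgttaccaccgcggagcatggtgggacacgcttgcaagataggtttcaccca
Srsf11: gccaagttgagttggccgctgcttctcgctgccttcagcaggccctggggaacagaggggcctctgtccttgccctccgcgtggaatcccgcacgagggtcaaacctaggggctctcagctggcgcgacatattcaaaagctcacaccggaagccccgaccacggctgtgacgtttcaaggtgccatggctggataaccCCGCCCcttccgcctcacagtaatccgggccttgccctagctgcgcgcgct
Hnrnpl: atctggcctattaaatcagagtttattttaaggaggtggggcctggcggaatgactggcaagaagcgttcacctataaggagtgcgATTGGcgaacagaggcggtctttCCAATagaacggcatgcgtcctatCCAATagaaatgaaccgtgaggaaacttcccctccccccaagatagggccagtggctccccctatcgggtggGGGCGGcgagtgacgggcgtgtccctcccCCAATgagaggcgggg
Hnrnph2: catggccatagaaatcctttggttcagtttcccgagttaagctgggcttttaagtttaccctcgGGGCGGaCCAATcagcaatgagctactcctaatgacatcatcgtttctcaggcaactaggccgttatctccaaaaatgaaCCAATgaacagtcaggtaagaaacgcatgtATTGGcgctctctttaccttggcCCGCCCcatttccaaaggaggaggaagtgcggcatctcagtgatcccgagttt
The windows of Srsf9 and Srsf11 held only GC boxes (GGGCGG) of the motifs searched. That of Srsf1 held a GC box and an E2F motif, and those of Hnrnpl and Hnrnph2 held CCAAT and GC boxes. No match says only that the letters are not in this window.

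RefSeq windows were found for 29 of the 31 genes, 41 windows in all, since some genes have several starts whose windows can overlap. On either strand, and with overlapping motifs each counted, a GC box stood in 80.5% of them, in 58.7% of 11964 windows of measured genes and in 32.7% of all 32851 windows. A CCAAT box (CCAAT) stood in 17 of 27 hnRNP windows, 63.0%, and in 3 of 14 SR protein windows, 21.4%, beside 35.8% for measured genes and 33.8% for all windows. An E2F motif (TTTCCCGC, TTTGGCGC or TTTCGCGC) stood in 4 of the 41, 9.76%, against 2.93% and 1.53%. The ETS motif (CCGGAAGT) stood in 14.6% against 6.07% and 2.88%, the TATA box (TATAAA) in 7.32% against 5.88% and 12.4%, and the palindromic NRF1 consensus in 2.44% against 1.67% and 0.782%. The CRE (TGACGTCA) stood in 0 of the 41 windows, against 2.67% and 1.55%. The windows had a median GC content of 68.0%, against 60.0% for measured genes and 52.4% for all. By family, the ETS motif stood in 28.6% of SR protein and 7.41% of hnRNP windows, and the TATA box in 14.3% and 3.70%. These shares are descriptions, and a match is not a binding site.

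As families, SR protein genes tended to lie below the middle gene and hnRNP genes around or above it. The median log2 ratio was -0.12 over the 10 measured SR protein genes and 0.22 over the 20 hnRNP genes, beside 0.18 over all measured genes. Abundant genes as a class lay lower, with a median of 0.07 over the 4679 genes with at least 1000 reads. Over the members in that range, the medians were -0.15 for 9 SR protein genes and 0.22 for 15 hnRNP genes. Of the SR protein genes 8 of 10 lay below the middle gene, and of the hnRNP genes 9 of 20 did.

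Few members passed 1.5-fold. Hnrnph2 and Hnrnph3 were at least 1.5-fold higher in the Mn-treated library, 6.67% of 30 members, where 21.6% of all measured genes were. Srsf9 alone was at least 1.5-fold lower, 3.33%, where 5.97% of all measured genes were. No member reached 2-fold in either direction, which 8.96% of measured genes did. When both libraries were scaled so that the middle gene lay at 0, Hnrnph3 was the only member higher by 1.5-fold (background 13.4%), and Srsf9 and Srsf6 were lower (background 11.3%). The counting interval lay wholly below the middle gene for 12 members, 7 SR protein and 5 hnRNP genes, and 31.1% of all measured genes did so. Among genes with at least 1000 reads, 7 of 9 SR protein genes and 5 of 15 hnRNP genes did so, where 49.7% of such genes did. The interval lay wholly above the middle gene for 9 members, Srsf5 and 8 hnRNP genes, where 29.0% of all measured genes did so. Of the 24 members with at least 1000 reads 0 were 1.5-fold higher on column totals, where 10.7% of such genes were, and Srsf9 was lower, where 4.32% were. Against the middle gene 0 of the 24 were higher (background 4.72%) and Srsf9 and Srsf6 lower (background 11.0%), 0 reached 2-fold (background 1.80%), and 1 SR protein gene and 5 hnRNP genes lay wholly above the middle gene (background 28.1%).

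**Figure D2:**
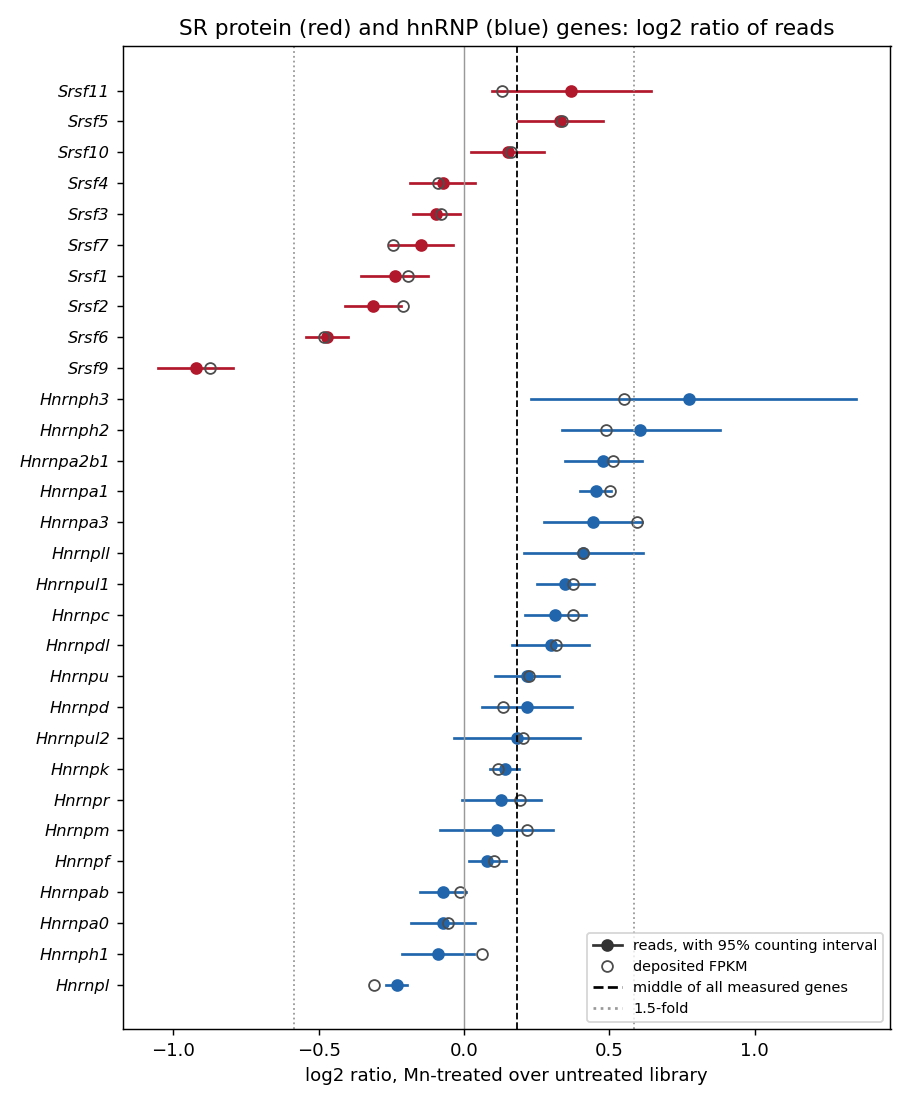
Log2 ratio of reads (filled points, with 95% counting intervals as lines) and of the deposited FPKM (open circles) for the 30 measured genes, Mn-treated over untreated. The dashed line is the middle of all measured genes at 0.18 and the dotted lines mark 1.5-fold. Srsf9 lies left of the lower dotted line at -0.92, and Hnrnph2 and Hnrnph3 right of the upper one by reads, though not by FPKM.

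The SR proteins with a pair of RRMs (Srsf1, Srsf4, Srsf5, Srsf6 and Srsf9) held the widest spread of the SR protein genes. Srsf9, a regulator of splice site choice, had 1359 reads untreated and 749 with manganese. It was 1.90-fold lower, at a log2 ratio of -0.92 [-1.05 to -0.79], and 2.03% of measured genes lay lower still. Its RefSeq span overlaps that of Gatc, so its reads may include some of that gene. Srsf6 had 3701 and 2791 reads, at -0.47 [-0.54 to -0.40]. Srsf1, the founding SR protein, had 1338 and 1185, at -0.24 [-0.35 to -0.13]. Srsf4 had 1305 and 1296, at -0.07 [-0.19 to 0.04]. Srsf5 went the other way, with 667 and 877 reads, at 0.33 [0.18 to 0.48]. So within a subgroup of like proteins, Srsf9 and Srsf6 were lower with manganese and Srsf5 higher, on column totals and also against the middle gene.

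The SR proteins with a single RRM lay closer together. Srsf2, a component of nuclear speckles, had 1928 and 1621 reads, at -0.31 [-0.41 to -0.22]. Its span overlaps Mfsd11. Srsf7 had 1452 and 1371 reads, at -0.15 [-0.25 to -0.04], and Srsf3 had 2598 and 2543, at -0.09 [-0.17 to -0.02]. Both couple splicing to mRNA export. All 3 lay wholly below the middle gene in their counting intervals. The SR-like genes were higher on column totals. Srsf10, which represses splicing when dephosphorylated, had 970 and 1125 reads, at 0.15 [0.02 to 0.28], which turned to -0.03 against the middle gene. Srsf11 had 195 and 263, at 0.37 [0.09 to 0.64].

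Among the hnRNPs of the A/B and D group, which carry paired RRMs and a glycine-rich tail, Hnrnpa1, Hnrnpa2b1 and Hnrnpa3 had like ratios. Hnrnpa1 had 4954 reads untreated and 7088 with manganese, at 0.45 [0.40 to 0.51]. Hnrnpa2b1, which also carries RNAs along neurites, had 794 and 1157, at 0.48 [0.35 to 0.61]. Hnrnpa3 had 498 and 708, at 0.44 [0.28 to 0.61]. Their 3 ratios were within 0.04 of each other on the log2 scale, and each interval lay wholly above the middle gene. Counts of Hnrnpa1 and Hnrnpa3 were fractional, and their processed copies in the genome can share reads with them, so these values are uncertain. Hnrnpa0, a single-exon relative, did not share this, with 1377 and 1369 reads, at -0.07 [-0.18 to 0.04].

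The D-type genes act in mRNA decay and transcription as well as splicing. Hnrnpd had 621 and 754 reads, at 0.22 [0.06 to 0.37], and Hnrnpdl had 838 and 1077, at 0.30 [0.17 to 0.43]. Hnrnpab had 2574 and 2561, at -0.07 [-0.15 to 0.01]. All 3 overlap other genes in RefSeq. Over the whole A/B and D group the median log2 ratio was 0.30, and 5 of 7 genes lay above the middle gene.

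In the F/H group, whose quasi-RRMs bind runs of G, the scarce genes had the higher ratios. Hnrnph3 had 44 and 79 reads, 1.71-fold [1.17 to 2.54], and its span overlaps Rufy2. Hnrnph2 had 184 and 293 reads, 1.52-fold [1.26 to 1.84]. Hnrnph1, their abundant relative, had 1091 and 1072, at -0.09 on the log2 scale [-0.21 to 0.03]. Hnrnpf had 3889 and 4298, at 0.08 [0.02 to 0.14], or -0.10 against the middle gene. The lower ends of the intervals of both genes past 1.5-fold lie below 1.5-fold.

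The remaining hnRNPs lay within 1.5-fold. Hnrnpl had the most reads of all members, 12759 and 11359, at -0.23 [-0.27 to -0.20], and was the lowest hnRNP. Its relative Hnrnpll had 344 and 478, at 0.41 [0.21 to 0.61]. In the U group, whose founder Hnrnpu is a nuclear scaffold protein, the 3 genes lay between 0.18 and 0.35, with Hnrnpul1 highest on 1494 and 1987 reads. Hnrnpc, which packages nascent RNA at U tracts, had 1302 and 1692, at 0.31 [0.21 to 0.42]. Hnrnpk, Hnrnpr and Hnrnpm were at 0.14, 0.13 and 0.11, all between 0 and the middle gene, so that their sign depends on the scaling.

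Ratios between related genes do not depend on how the libraries are scaled, so 15 pairs of relatives were compared within each library. The counting interval excluded an equal change for 8 pairs and included it for 7. Srsf9 had 1.02 reads per read of Srsf1 untreated and 0.632 with manganese, a change of 0.622 [0.553 to 0.701]. Srsf6 had 5.55 reads per read of Srsf5 and then 3.18, a change of 0.574 [0.513 to 0.642]. These SR protein pairs shifted toward Srsf1 and toward Srsf5. Srsf3 and Srsf7 showed a change of 1.04 [0.946 to 1.14].

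Among the hnRNPs, Hnrnpl had 37.1 reads per read of Hnrnpll untreated and 23.8 with manganese, a change of 0.641 [0.557 to 0.738]. Hnrnph1 had 5.93 reads per read of Hnrnph2 and then 3.66, a change of 0.617 [0.504 to 0.756]. By FPKM the ratio of Hnrnph1 to Hnrnph2 was 7.87 and then 5.85, a smaller change in the same direction. In both pairs the scarcer gene gained on the abundant one. Abundant genes lay lower as a class, at a median of 0.07 beside 0.18 for all measured genes. Hnrnpd likewise gained on the more abundant Hnrnpab, with 0.241 reads per read and then 0.294, a change of 1.22 [1.08 to 1.38]. Among the SR protein pairs, Srsf5 gained on the more abundant Srsf4 and Srsf6, and Srsf4 on Srsf6. Of the hnRNP pairs whose interval excluded an equal change, only Hnrnph1 and Hnrnpf went the other way. Hnrnph1 had 0.281 reads per read of the more abundant Hnrnpf and then 0.249, a change of 0.889 [0.809 to 0.977]. Hnrnpul1 had 4.57 reads per read of the scarcer Hnrnpul2 and then 5.12, a change of 1.12 [0.954 to 1.32], an interval that includes an equal change. Hnrnpa1, Hnrnpa2b1 and Hnrnpa3 kept their proportions more closely, with a change of 0.982 [0.891 to 1.08] for Hnrnpa1 over Hnrnpa2b1 and 1.01 [0.892 to 1.13] for Hnrnpa1 over Hnrnpa3. Hnrnpa0 was not among the pairs, and its log2 ratio of -0.07 lay apart from theirs.

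**Figure D3:**
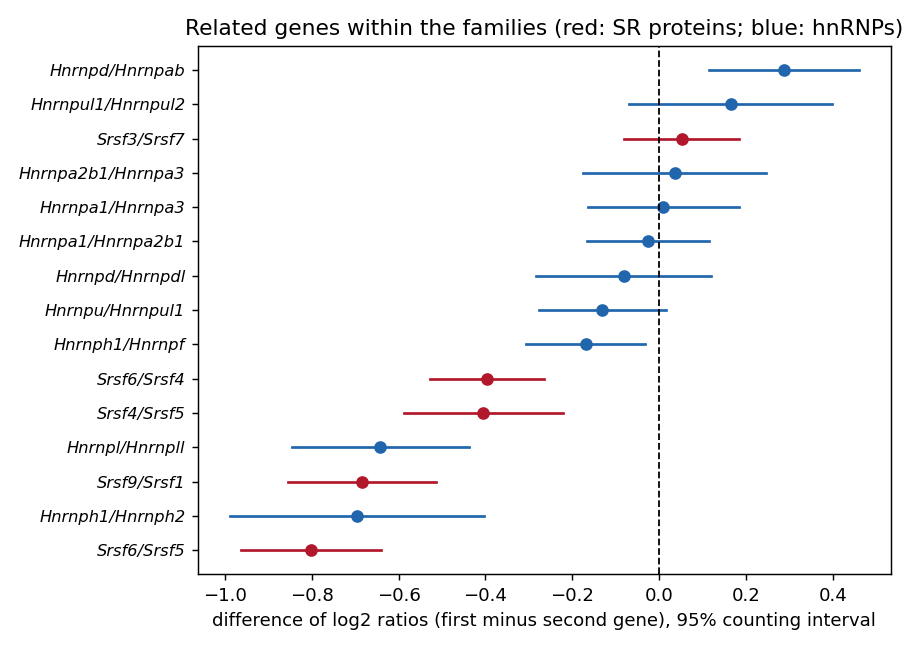
Difference of log2 ratios (first minus second gene) for 15 pairs of related genes, with 95% counting intervals, SR protein pairs in red and hnRNP pairs in blue. The intervals of 8 pairs exclude 0, Srsf6 against Srsf5 lies farthest out at -0.80, and the 3 pairs among Hnrnpa1, Hnrnpa2b1 and Hnrnpa3 lie within 0.04 of 0; Hnrnpa0 is not plotted.

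The balance of reads between the families shifted toward the hnRNPs. SR protein genes held 15513 and 13821 reads, 0.111% and 0.0946% of the libraries. hnRNP genes held 41586 and 46208 reads, 0.298% and 0.316%. There were 2.68 hnRNP reads per SR protein read untreated and 3.34 with manganese, a change of 1.25 [1.21 to 1.28]. It is the same under any scaling by 1 factor per library, but not by FPKM, which also divide by transcript length. Hnrnpl alone held 12759 of the untreated hnRNP reads, and without it the change was 1.36 [1.32 to 1.40]. Leaving out Srsf9 works the other way. Without it the SR protein genes held 14154 and 13072 reads, 0.883-fold by column totals in place of 0.852-fold. Hnrnpa1, with 4954 and 7088 uncertain reads, also adds to the shift, and the change without it was not computed. By summed FPKM the SR protein genes went from 357 to 304 and the hnRNP genes from 1181 to 1205. Whether these shifts reach proteins or splice choices was not measured.

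**Figure D4:**
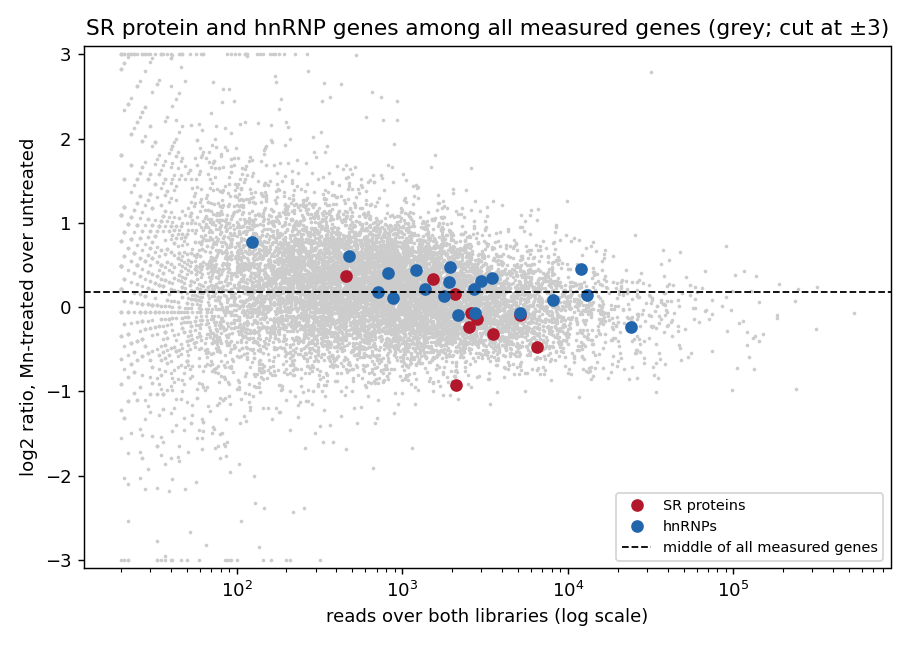
Log2 ratio (Mn-treated over untreated) against reads over both libraries (log axis) for all 11872 measured genes in grey, with SR protein genes in red and hnRNP genes in blue; grey points beyond ±3 are drawn at the edge. Srsf9 at -0.92 is the lowest member, with 2.03% of measured genes below it, and Hnrnph3 at 0.77 is the highest, with 86.9% below it.

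The FPKM values gave the same picture with some exceptions. The authors' deposited table has Srsf9 at -0.87, Srsf6 at -0.48, Hnrnpa1 at 0.50 and Hnrnpa2b1 at 0.51. In the authors' deposited table Hnrnph1 is at 0.06, the opposite sign from reads, and Hnrnpa3 at 0.59, past 1.5-fold. Hnrnph2 is at 0.49 and Hnrnph3 at 0.55 in the authors' deposited table, short of 1.5-fold. The middle measured gene is at 0.16 in the authors' deposited table. Srsf11 and Hnrnpd, both at 0.13, lie below it there, though above the middle gene by reads. Hnrnpm at 0.22, Hnrnpul2 at 0.20 and Hnrnpr at 0.19 lie above it there, though below by reads. The highest SR protein gene by the authors' deposited table is Srsf5, at 0.34, in place of Srsf11. The number of reads behind each FPKM unit, which depends on the transcript length the authors' processing assigned, differed by at least 1.1-fold between the libraries for 2 members, beyond the shift of the middle gene. These were Srsf11, by 0.25 on the log2 scale, and Hnrnph3, also by 0.25. Of 9563 genes with at least 1 FPKM in both libraries 24.6% differed by that much. Whether these genes used other isoforms was not tested. The authors' deposited table gives a false discovery rate under 0.05 for 20 of the 30 members and 58.2% of measured genes. How those rates were computed is not stated, and each group had 1 library.

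The proteins that act on these regulators did not share 1 direction. Of 13 genes of SR protein kinases and phosphatases 11 were measured, with a median log2 ratio of 0.27, beside 0.18 for all genes. By 1.5-fold 2 were higher, 18.2%, and 0 lower (background 21.6% and 5.97%), or 2 higher and 2 lower against the middle gene (background 13.4% and 11.3%). Srpk2, a kinase of SR proteins, had 225 and 484 reads, at 1.04, though it is at 0.51 in the authors' deposited table. Clk4, of a family of nuclear kinases that act on the same repeats, had 55 and 113, at 0.97. The phosphatase subunit gene Ppp1cb was at 0.55, while Ppp1ca, with 11049 and 7736 reads, was at -0.58, Clk3 at -0.40 and Ppp1r8 at -0.09. Of 9 genes of nuclear import and arginine methylation of these proteins 1 was higher by 1.5-fold, 11.1%, and 0 lower (background 21.6% and 5.97%). All 9 had at least 1000 reads, where the background was 10.7% and 4.32%. Against the middle gene 0 were higher and 1, the methylase gene Prmt1, was lower (background 13.4% and 11.3%, or 4.72% and 11.0% from 1000 reads). Tnpo1, which imports hnRNPs of the A type, was the higher one on column totals, at 0.73. The authors' deposited table has 0.43 for it. Prmt3 was at 0.43 and Tnpo3, which imports SR proteins, at 0.28. The methylase gene Prmt1 was at -0.46, Prmt5 at -0.28 and its partner Wdr77 at -0.16. Their median was -0.04.

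SR-related proteins, which carry arginine and serine repeats but are named otherwise, had a median log2 ratio of 0.30 over 24 measured genes. By 1.5-fold 6 were higher, 25.0%, and 0 lower, near the background of 21.6% and 5.97%. Srrm2, a scaffold of nuclear speckles, had 1756 and 3720 reads, at 1.02, whereas the authors' deposited table has 0.34 for it. Luc7l3 had 136 and 272 reads, at 0.93, and Bclaf1 had 301 and 573, at 0.86. At the low end Rnps1 was at -0.32, Clasrp at -0.19 and Acin1 at -0.13.

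Core spliceosome genes had a median of -0.08 over all 82, with 5 higher (6.10%) and 3 lower (3.66%) by 1.5-fold, where the background was 21.6% and 5.97%. Against the middle gene 3 were higher and 15 lower, where 13.4% and 11.3% of all measured genes were. Of these 82 genes 49 had at least 1000 reads, and abundant genes lay lower as a class. Of all genes with at least 1000 reads 10.7% were higher and 4.32% lower, or 4.72% and 11.0% against the middle gene. Their median was 0.07. The part of abundance in the values of the core spliceosome genes was not tested. Snrpa1, a U2 particle protein, had 1211 and 682 reads, at -0.89, with Snw1 at -0.81 and Snrnp25 at -0.71. The helicase gene Ddx5 had 3834 and 7053, at 0.82, Prpf3 was at 0.70 and Prpf39 at 1.05. For Prpf3 and Prpf39 the authors' deposited table has 0.45 and 0.29. Other splicing regulators, 51 measured of 60, had a median of 0.15, with 6 higher (11.8%) and 1 lower (1.96%) by 1.5-fold (background 21.6% and 5.97%), or 2 and 3 against the middle gene (background 13.4% and 11.3%). Nova1, a neuronal regulator, had 105 and 224 reads, at 1.03, while the authors' deposited table has 1.86 for it. Ptbp3 was at 0.69 by reads and at 0.41 in the authors' deposited table, and Matr3 was at 0.61 by reads. The lowest were Rbm10 at -0.60, Pspc1 at -0.57 and Rbm4 at -0.50. The 17 genes of the exon junction complex and nonsense-mediated decay had a median of 0.04, with 2 higher (11.8%) and 1 lower (5.88%) by 1.5-fold (background 21.6% and 5.97%), or 1 and 3 against the middle gene (background 13.4% and 11.3%). Upf1, the central helicase of that decay, had 3120 and 2015 reads, at -0.69, followed by Eif4a3 at -0.42 and Smg5 at -0.41, while Upf2 was at 0.59, Smg1 at 0.57 and Nbas at 0.51. The authors' deposited table has 0.45 for Upf2 and 0.19 for Smg1. The SR protein, core spliceosome and import and methylation genes thus had medians below 0, and hnRNPs, SR-related proteins and the kinases and phosphatases had medians above the middle gene. By the authors' deposited table the kinases and phosphatases had a median of 0.14, below the 0.16 of all measured genes.

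**Figure D5:**
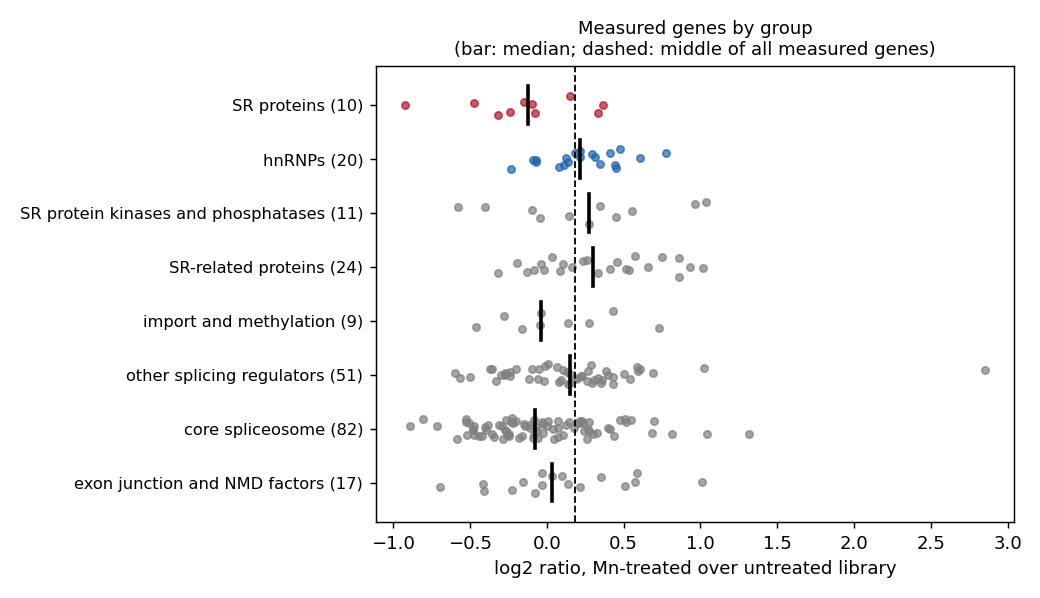
Log2 ratio of every measured gene of the SR proteins (red), hnRNPs (blue) and 6 lists of other splicing genes (grey), with the median as a bar and the middle of all measured genes, 0.18, as a dashed line; numbers in parentheses count measured genes. The medians of SR proteins (-0.12) and core spliceosome genes (-0.08) lie left of the dashed line, and that of SR-related proteins (0.30) right of it.

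Hnrnpk also carries a microRNA hairpin, Mir7-1, within its RefSeq span, the only member to hold one, so the small RNA libraries give a second readout of that locus. MicroRNAs are short RNAs that repress target mRNAs, chosen mainly by their seed (bases 2 to 8, in capitals). The mature sequences from RefSeq (GRCm38.p6) show which arms tell the miR-7 hairpins apart.
mmu-miR-7a-5p: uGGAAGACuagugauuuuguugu
mmu-miR-7b-5p: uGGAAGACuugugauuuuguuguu
mmu-miR-7a-1-3p: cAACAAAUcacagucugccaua
mmu-miR-7a-2-3p: cAACAAGUcccagucugccaca
The arm miR-7a-5p comes from both Mir7-1 (chr13:58392841-58392863, minus strand) and Mir7-2 (chr7:78888295-78888317, plus strand), and its reads cannot be assigned to either. It shares its seed with miR-7b-5p of Mir7b on chromosome 17. The 3p arms differ in sequence, and miR-7a-1-3p is that of the hairpin within Hnrnpk.

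In the small RNA libraries miR-7a-5p was the second most abundant small RNA in both. It had 1187531 reads of 10479102 untreated and 956456 of 9943263 with manganese, 11.3% and 9.62%, a log2 ratio of -0.24 beside a median of 0.09 over the 1084 small RNAs with at least 20 reads. The arm particular to the Hnrnpk hairpin, miR-7a-1-3p, had 109 and 96 reads, at -0.11 [-0.52 to 0.30], and miR-7a-2-3p had 178 and 151, at -0.16 [-0.48 to 0.16]. The host gene Hnrnpk lay at 0.14 in the total RNA libraries. At this depth neither 3p arm differed beyond counting error. In contrast miR-7b-5p had 111046 and 164484 reads, 1.56-fold [1.55 to 1.57]. The labels do not say whether small and total RNA came from the same cultures.

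Circular RNAs were read out by back-splice junctions. Among 2253 circRNAs there were 3 assigned to a member in the deposited annotation, including an antisense one. By this assignment 3 of the 30 measured members had one, beside 11.8% of all measured genes and 14.9% of those with at least 1000 reads. A circRNA of 769 bases from annotated exons of Hnrnpll had 16 junction reads of 11665 untreated and 20 of 9433 with manganese, a ratio of 1.54 [0.761 to 3.19]. A single-exon circRNA of 3063 bases at Srsf1 had 4 and 8 junction reads, a ratio of 2.34 [0.663 to 11.2]. Both intervals include an equal share, so no difference was detectable at this depth. The third, antisense to Srsf11, had 0 and 2 junction reads.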

How the data were processed

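Total RNA and small RNA of untreated and Mn-treated N2a cells gave 4 libraries, 1 per group. Per the labels' protocols, RNA was harvested with Trizol and ribosomal RNA was removed. The build mm9 and the tools fastp 0.18.0, Bowtie2 and StringTie are named, per the submitters' processing notes, with no role. Counter, annotation and miRNA and circRNA callers: not given in the sources used here. Deposited by the authors were estimated counts per gene, fractional for 13.3% of genes and 12 members, and FPKM values, log2 fold changes of FPKM with 0 written as 0.001, and p-values. They deposited whole junction read counts and RPM for circRNAs, and whole read counts and TPM for small RNAs. No per-sample column was left unassigned.

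Estimated counts were rounded. Ratios used reads plus 0.5 over column totals, with exact binomial (Clopper-Pearson) 95% intervals. Pair and family changes are odds ratios with normal-approximation intervals of the log odds. Since PCR reads are no independent molecules, these intervals and the floor of 3 counts cover counting error only. No test was made. Other genes named were the 3 highest and 3 lowest of each list that reached 100 reads in either library. CircRNAs were described at any count. RefSeq (GRCm38.p6) gave overlaps, for all 31 members, and sequences. The rule for printed sequences was written for proteins and was applied to promoters. Members and lists were chosen with earlier results of these data known. The ratios were tested on simulated data. Python 3.11.15, SciPy 1.17.1 and, for TMM factors, edgeR 4.0.16 were used. The alternatives tried were other scalings, FPKM, the added constant, read filters, whole counts only and removal of the length trend.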

Additional observations from a re-analysis of the deposited data

How the results depend on the processing

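No paired analysis was possible because each group had 1 library, and for the same reason no library could be left out. The scaling mattered most. With the middle gene at 0 the medians became -0.30 for SR protein genes and 0.033 for hnRNP genes, and with edgeR's TMM factors -0.30 and 0.040. Both scalings left 1 member at least 1.5-fold higher and 2 lower, in place of 2 and 1. The log2 ratio turned its sign for 6 members with the middle gene at 0 (Hnrnpf, Hnrnpk, Hnrnpm, Hnrnpr, Hnrnpul2 and Srsf10), for 5 with TMM, for 1 with FPKM (Hnrnph1) and for 4 with the length trend removed (Hnrnpab, Hnrnph1, Hnrnpul2 and Srsf7). With FPKM 1 member was higher by 1.5-fold. At 2-fold the counts were 0 higher and 0 lower. An alternative chosen after seeing the data left out the 11 members that overlap another RefSeq gene, Srsf9 and Hnrnph3 among them, and left 1 higher and 0 lower. With the length trend removed 3 members were higher, Hnrnpa2b1 (0.61) joining, 1 was lower, and the medians were -0.06 and 0.28. Under the added constant of 1 read, the 100-read filter, no filter and whole counts only, 2 members were higher and 1 lower, and the medians lay between -0.15 and -0.09 for SR protein genes and between 0.22 and 0.31 for hnRNP genes. Depth limits the scarce genes most: with 44 and 79 reads, the fold of Hnrnph3 spans 1.17 to 2.54.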

Other observations

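The deposited annotation assigns 116 genes other than the members to the spliceosome pathway, a grouping looked up after the values had been seen. Of these 110 were measured, with a median log2 ratio of -0.05 beside 0.18 for all measured genes. By 1.5-fold 8 were higher, 7.27%, and 3 lower, 2.73%, where 21.6% and 5.97% of all measured genes were. Against the middle gene 3 were higher and 18 lower, where 13.4% and 11.3% of all measured genes were. Of the 110 genes 65 had at least 1000 reads. Of all genes with at least 1000 reads 10.7% were higher and 4.32% lower, or 4.72% and 11.0% against the middle gene, with a median of 0.07. The summed reads of the grouping were 191331 and 211154, 1.06-fold by column totals. A sum follows its most abundant genes, and here it went the other way from the median of -0.05. It is therefore no measure of the typical gene of this grouping, and which genes carried it was not examined. The lowest and highest log2 ratios of this grouping, -0.89 and 1.31, are also those of the core spliceosome list above. Both thus share genes, and this grouping is not a separate result. How many genes they share was not counted.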
